A study of Rattus norvegicus with 8 samples.

Results

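The genes described here are the ubiquitin-conjugating (E2) enzymes of rat liver whose symbols begin with Ube2. They were taken as all probe sets, apart from the manufacturer's control sets, for which the array platform's annotation gave exactly 1 gene symbol with that beginning. The rule found 52 probe sets for 29 genes, of 31042 probe sets and 14217 genes with a symbol of their own on the array. A probe set is a group of short probes that together give 1 signal for a transcript or a part of one, and a gene can have several.

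The livers came from male Goto-Kakizaki (GK) rats, a lean inbred strain with type 2 diabetes. In 4 rats the AIN-93G diet contained a persimmon peel extract for 12 weeks, and 4 rats ate AIN-93G alone over the same period. All 8 rats were 18 weeks old when the liver was taken, and all shared the GK strain and the AIN-93G base, so no group without the diabetes-prone background was compared here. The dose of the extract is not given in the sources used here. Biotin-labelled cRNA from total liver RNA was hybridised to 1-colour Affymetrix arrays, 1 array per rat, and the comparison asks how the extract in the diet altered hepatic gene expression.

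Ubiquitin is a small protein that cells attach to other proteins, most often to mark them for the proteasome. An activating enzyme (E1) loads ubiquitin, an E2 carries it on a cysteine, and a ligase (E3) brings the loaded E2 to the substrate. The E2 often sets which kind of chain is built, and some E2s carry ubiquitin-like proteins such as NEDD8, ISG15 or SUMO instead. In liver the system turns over gluconeogenic and lipid-synthesis enzymes and clears misfolded secretory proteins from the endoplasmic reticulum (ER).

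A probe set was tested when its mean log2 signal lay in the upper 50% of the array, which left 15521 sets with mean signals of at least 34.4 units. Of the 52 Ube2 sets, 41 sets of 24 genes passed this filter and 11 did not. Differences are log2 fold changes, persimmon peel minus control diet, from limma fitted over all tested sets, and a set is called when its Benjamini-Hochberg adjusted p was under 0.05. The sets of 1 gene are ranked here as brightest or dimmer by their mean signal over the 8 arrays, which also depends on how well each probe set hybridises. That rank therefore says nothing about the amount of a transcript.

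The 8 arrays had median signals of 33.2 to 39.2 units and correlated pairwise at r = 0.967 to 0.986. Hepatocyte markers dominated all arrays, with 9 of 10 listed genes present and tested. Their summed signal was 76027 to 81401 on the persimmon peel arrays and 81960 to 87953 on the control arrays, so the groups did not overlap. Of 14 hepatocyte sets 1, a dimmer set of Cps1, was called lower (7.14%), where 4.53% of all tested sets were called lower. An unadjusted p under 0.05 was found for 6 of the 14, against 3044 of all 15521 tested sets. The median log2 fold change of the 14 sets was -0.13, against -0.0071 for all tested sets. Proliferation markers were near background, with 0 of 8 listed genes tested and summed signals of 98.6 to 146 on persimmon peel arrays and 83.6 to 155 on control arrays. T cell, B cell and neutrophil markers also had 0 tested sets. Of the Kupffer cell, endothelial, stellate, cholangiocyte and erythroid lists 0 sets were called by limma, with 1 endothelial set at an unadjusted p under 0.05. The beta-actin control sets, which read the same transcript near its 3' end and further upstream, stood apart between the groups. Middle over 3' signal, as a log2 ratio, was -1.18, -0.92, -1.09 and -1.06 on persimmon peel arrays 1 to 4, against -0.76, -0.77, -0.75 and -0.78 on control arrays 1 to 4. All 4 persimmon peel arrays lay below all 4 control arrays (two-sided exact permutation p = 0.0286, the smallest that 4 against 4 arrays allow, and 0.0571 after adjustment over 4 ratios). The GAPDH middle to 3' ratio was -0.59 ± 0.05 on persimmon peel arrays and -0.58 ± 0.03 on control arrays (SD, n = 4 each; exact permutation p = 0.857). Ratios of the 5' set to the 3' set had lower means in the persimmon peel group for both transcripts. For beta-actin this ratio was -1.97 ± 0.22 on persimmon peel arrays and -1.68 ± 0.12 on control arrays, again without overlap (SD, n = 4 each; exact permutation p = 0.0286, adjusted 0.0571). For GAPDH it was -0.43 ± 0.08 on persimmon peel arrays and -0.29 ± 0.10 on control arrays, with overlap (SD, n = 4 each; exact permutation p = 0.0857, adjusted 0.114). In whole liver RNA, fewer cells of a type and less RNA per cell cannot be told apart.

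Signals of 4 Ube2 probe sets fell under the persimmon peel diet, in 3 genes: Ube2h with 2 sets, Ube2g1 and Ube2q2 with 1 each. None rose. The fall was 2.34-fold and 1.62-fold for the Ube2h sets, 1.59-fold for Ube2q2 and 1.48-fold for Ube2g1. In each of these genes the called set was a dimmer one, and the brightest set of the same gene was not called. The 4 called of 41 tested sets make 9.76%, where 4.53% of all tested sets were called lower. These shares are not matched for kind of set. Dimmer sets made up 17 of the 41 Ube2 sets, against 2981 of all 15521, and 13.8% of all dimmer sets were called lower. Ube2 sets called higher numbered 0 by limma, also at an unadjusted p under 0.05, where 0.425% of all tested sets were called higher. Over the whole array 703 sets were called lower and 66 higher, a split that became 596 lower and 271 higher after quantile normalization, which called the same 4 Ube2 sets.

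To show the start regions of the 3 genes with a called set, the 250 bases before each annotated start are given from RefSeq on the GRCr8 build, in the direction of the gene. Capitals mark every match, on either strand, to one of the 6 motifs searched.
Ube2h, chr4:59897584-59897833, minus strand: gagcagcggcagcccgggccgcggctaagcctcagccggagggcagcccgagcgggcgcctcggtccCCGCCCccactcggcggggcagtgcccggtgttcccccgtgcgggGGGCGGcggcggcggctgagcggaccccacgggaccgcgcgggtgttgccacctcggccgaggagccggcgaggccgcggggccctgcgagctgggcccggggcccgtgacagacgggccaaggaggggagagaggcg
Ube2g1, chr10:57724258-57724507, plus strand: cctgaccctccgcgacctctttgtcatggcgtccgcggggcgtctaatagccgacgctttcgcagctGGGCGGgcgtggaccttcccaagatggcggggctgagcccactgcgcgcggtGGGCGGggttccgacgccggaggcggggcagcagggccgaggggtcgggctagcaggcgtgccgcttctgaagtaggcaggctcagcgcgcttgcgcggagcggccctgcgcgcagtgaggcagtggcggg
Ube2q2, chr8:64414824-64415073, plus strand: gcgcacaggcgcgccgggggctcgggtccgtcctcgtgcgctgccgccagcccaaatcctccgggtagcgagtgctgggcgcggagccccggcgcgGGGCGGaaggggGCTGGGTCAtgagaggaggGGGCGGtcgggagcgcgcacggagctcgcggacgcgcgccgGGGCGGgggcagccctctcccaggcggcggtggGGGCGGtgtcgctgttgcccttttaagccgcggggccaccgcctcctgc
The capitals are GC boxes (GGGCGG), of which Ube2h and Ube2g1 have 2 each and Ube2q2 has 4, and 1 antioxidant response element (TGACNNNGC) on the reverse strand of the Ube2q2 stretch. The GC content was 81.2% for Ube2h, 72.8% for Ube2g1 and 78.4% for Ube2q2. The RefSeq table held 28 starts for 25 of the 29 Ube2 genes, with a median GC content of 64.2% against 51.2% over all 33465 promoters. A GC box was present in 17 of the 28 Ube2 promoters and in 30.5% of all promoters of this length. The antioxidant response element was present in 6 of 28 Ube2 promoters and in 10.1% of all, and the CCAAT box (CCAAT) in 10 of 28 and in 34.0% of all. TATAAA was found in 2 of 28, against 12.9% of all promoters. The E-box (CACGTG) was found in 1 of 28, against 5.59%, and the cAMP response element (TGACGTCA) in 0 of 28, against 1.59%. Motifs were searched on both strands, and none of the 6 contains another. A match describes these letters and does not show that a factor binds.

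**Figure D1:**
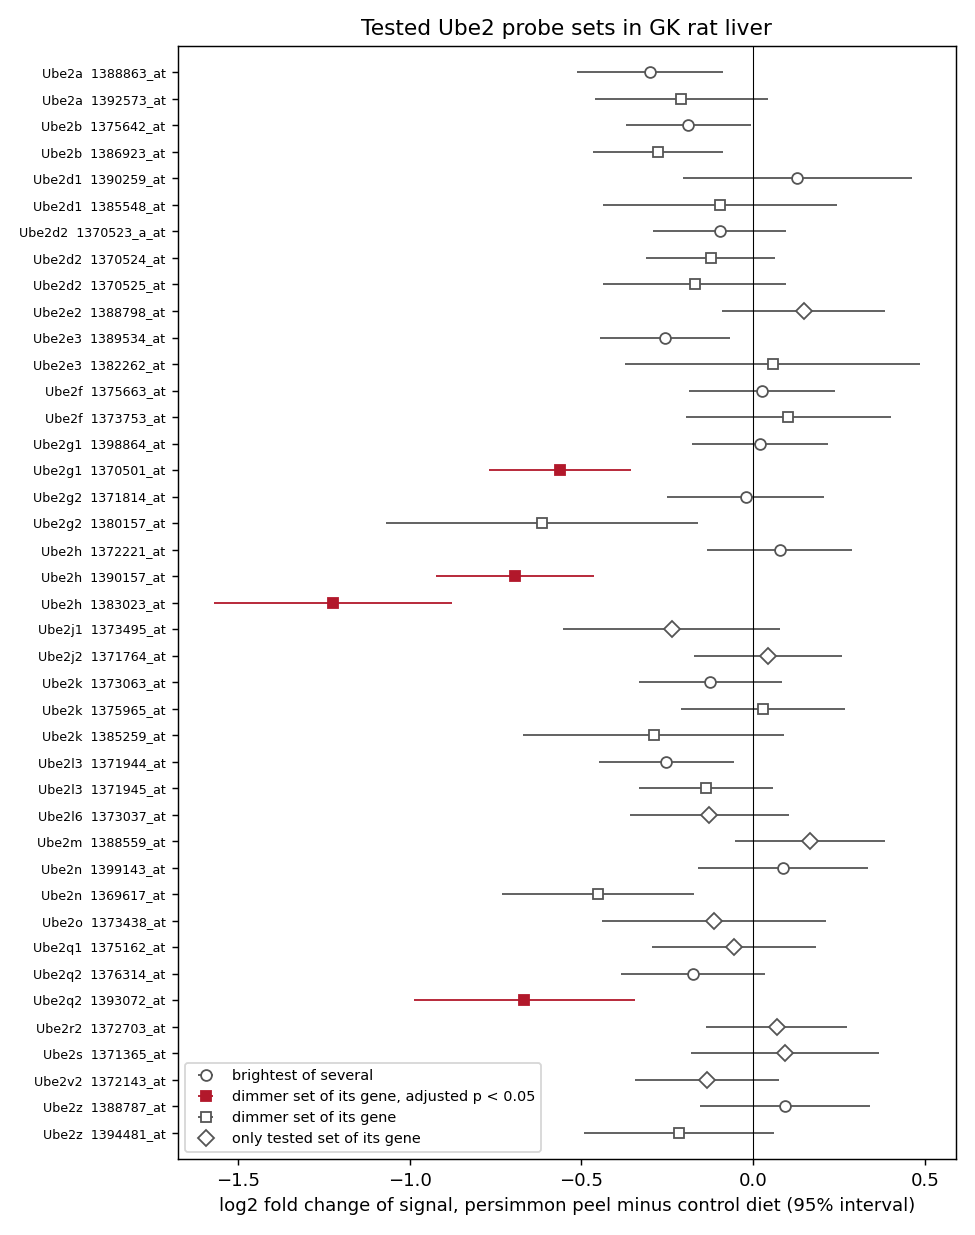
Log2 fold change of signal, persimmon peel minus control diet, for each of the 41 tested Ube2 probe sets, with 95% intervals from limma (4 arrays per diet). Circles are the brightest set of a gene with several, squares the dimmer sets and diamonds the only tested set of a gene. The 4 filled red squares are the called sets, all of them lower, and no circle or diamond is filled.

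Ube2h is the E2 that works with the CTLH ligase complex, the mammalian counterpart of the yeast complex that degrades gluconeogenic enzymes. Its set 1383023_at gave 62.9, 57.7, 41.5 and 44.0 signal units on persimmon peel arrays 1 to 4, against 115.5, 104.0, 123.9 and 132.5 units on control arrays 1 to 4. Every persimmon peel array lay well below every control array. The means were 51.5 ± 10.4 units under persimmon peel and 119 ± 12.1 units under control diet (SD, n = 4 each), a log2 fold change of -1.22 (SE 0.16, limma adjusted p = 0.0021). A second Ube2h set, 1390157_at, read 134.7, 147.9, 135.2 and 130.5 units on persimmon peel arrays and 209.2, 229.8, 208.3 and 240.0 units on control arrays. These groups did not overlap either, and the log2 fold change was -0.69 (SE 0.11, limma adjusted p = 0.0035). The brightest Ube2h set, 1372221_at, was not called. It read 977.6, 965.6, 1141 and 1191 units on persimmon peel arrays and 1007, 1007, 898.7 and 1134 units on control arrays, with the groups overlapping. Its log2 fold change was 0.08 (95% interval -0.13 to 0.29, limma adjusted p = 0.708).

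Ube2g1 builds ubiquitin chains together with cullin 4 ligases. Its dimmer set 1370501_at read 411.3, 472.0, 420.6 and 463.6 units on persimmon peel arrays, against 611.2, 612.1, 657.3 and 731.0 units on control arrays. The highest persimmon peel array was below the lowest control array. The means were 442 ± 30.4 units under persimmon peel and 653 ± 56.3 units under control diet (SD, n = 4 each), a log2 fold change of -0.56 (SE 0.10, limma adjusted p = 0.0052). The brightest Ube2g1 set, 1398864_at, read 942.7, 836.4, 1092 and 952.0 units on persimmon peel arrays and 920.1, 904.5, 934.3 and 996.7 units on control arrays. These overlapped, with a log2 fold change of 0.02 (95% interval -0.18 to 0.22, limma adjusted p = 0.93).

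Ube2q2 belongs to a less studied branch of the family with a long amino-terminal extension. Its dimmer set 1393072_at read 102.8, 116.4, 94.2 and 131.9 units on persimmon peel arrays, against 159.1, 175.0, 149.2 and 226.9 units on control arrays. The groups did not overlap, and control array 4 stood highest. The means were 111 ± 16.5 units under persimmon peel and 178 ± 34.6 units under control diet (SD, n = 4 each), a log2 fold change of -0.67 (SE 0.15, limma adjusted p = 0.0211). Without control array 4 the log2 fold change was -0.54 (limma adjusted p = 0.0801), and the adjusted p was 0.0697 without persimmon peel array 1 and 0.0559 without persimmon peel array 3. Over all alternatives its adjusted p ran between 0.0103 and 1.00. The brightest Ube2q2 set, 1376314_at, read 326.5, 349.6, 390.0 and 357.1 units on persimmon peel arrays and 398.5, 366.8, 422.0 and 418.8 units on control arrays. Only the third persimmon peel array reached into the control range, and the log2 fold change was -0.18 (95% interval -0.39 to 0.04, limma adjusted p = 0.349).

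**Figure D2:**
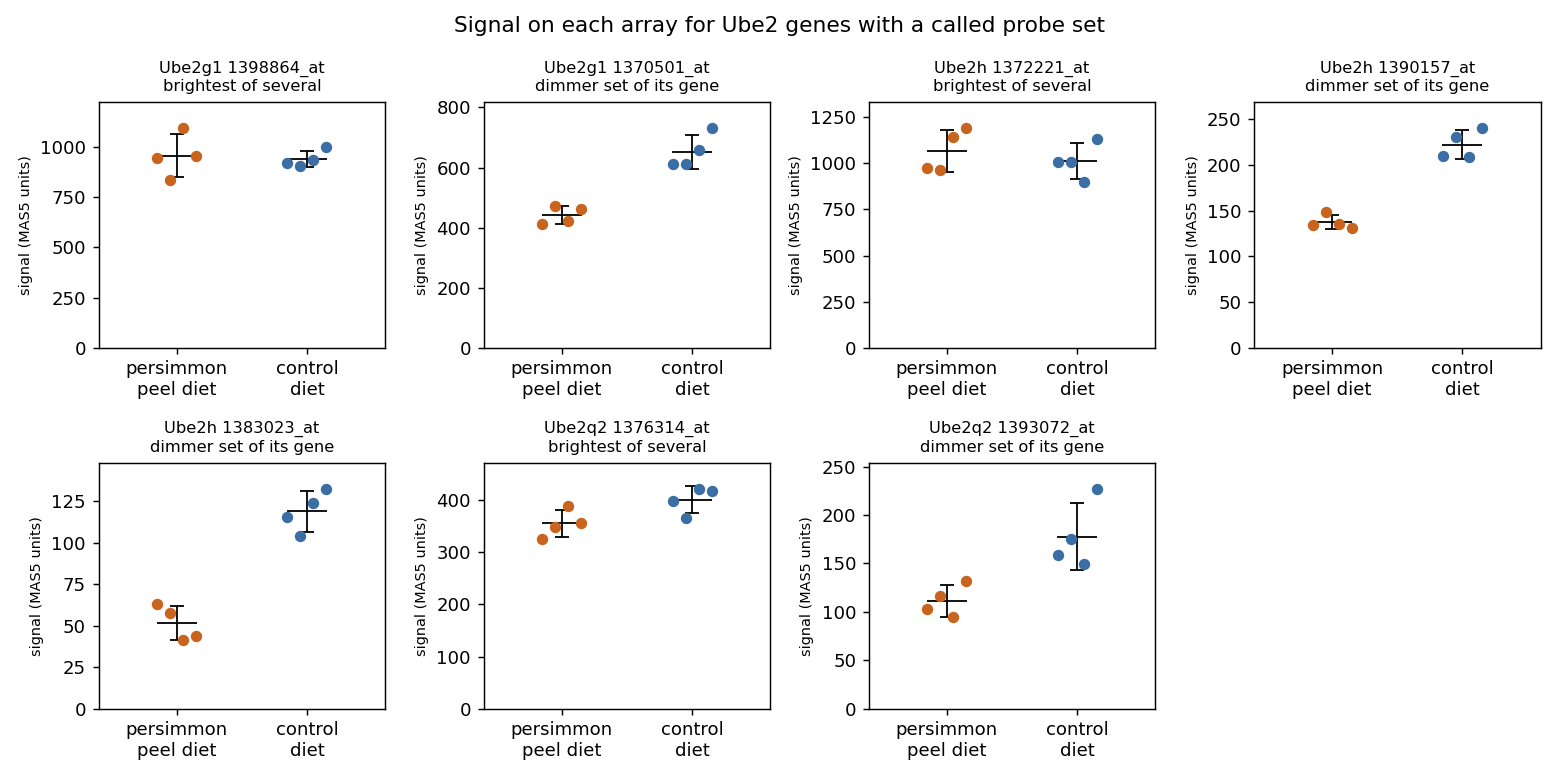
Signal on each array (points, MAS5 units on linear axes that start at 0) for all 7 tested sets of Ube2g1, Ube2h and Ube2q2, with the mean and SD in black (n = 4 per diet). The persimmon peel arrays sit below all control arrays in the 4 dimmer sets and overlap them in the 3 brightest sets.

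All 4 calls fell on dimmer sets of their genes. Among the 17 dimmer Ube2 sets of 14 genes, 4 were called lower (23.5%), where 13.8% of all dimmer sets on the array were called lower. Among the 14 brightest sets of those genes 0 were called by limma, where 2.31% of all such sets were called lower. At an unadjusted p under 0.05, 4 of these brightest sets were lower (28.6%) and 0 higher, against 12.0% lower and 6.49% higher of all such sets. Of the 10 Ube2 sets that were the only tested set of their gene, 0 were called by limma and 0 had an unadjusted p under 0.05, where 1.80% of all such sets were called lower. The median log2 fold change was -0.21 for the dimmer Ube2 sets, -0.06 for the brightest and -0.0062 for the only sets. Over the whole array these medians were -0.12 for dimmer sets, -0.0061 for brightest sets and 0.021 for only sets.

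The difference between 2 sets of a gene was tested directly on each array, as the log2 signal of the dimmer set minus that of the brightest, with limma over all 2981 such differences. Of the 17 Ube2 differences 5 were called lower under persimmon peel (29.4%), against 15.3% of all differences. Those called higher were 0 by limma, also at an unadjusted p under 0.05, against 1.91% of all. Negative changes numbered 12 of 17 (70.6%), against 66.6% of all, and the median change was -0.16 for the Ube2 differences and -0.14 for all. Such a difference shows that 2 sets of a gene changed unequally and does not show that either stayed the same.

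For Ube2h, set 1383023_at minus the brightest set was -3.96, -4.06, -4.78 and -4.76 on persimmon peel arrays and -3.12, -3.28, -2.86 and -3.10 on control arrays. Persimmon peel arrays 3 and 4 were lowest and no values overlapped, with a change of -1.30 (SE 0.19, limma adjusted p = 0.0025). The same difference for Ube2h set 1390157_at was -2.96 ± 0.22 under persimmon peel and -2.19 ± 0.08 under control diet, a change of -0.77 (SE 0.13, limma adjusted p = 0.0030). For Ube2g1 it was -1.20, -0.83, -1.38 and -1.04 on persimmon peel arrays and -0.59, -0.56, -0.51 and -0.45 on control arrays. Those groups did not overlap, and the change was -0.58 (SE 0.12, limma adjusted p = 0.0065). The Ube2q2 difference changed by -0.49 (SE 0.17, limma adjusted p = 0.0625) and was not called.

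Calls on the difference alone came from Ube2n, which pairs with a Ube2v partner to build chains used in inflammatory and DNA damage signalling, and from Ube2g2, an E2 of ER-associated degradation. The Ube2n difference was -2.73, -2.25, -2.98 and -2.47 on persimmon peel arrays and -1.87, -2.28, -1.95 and -2.18 on control arrays, with 1 persimmon peel array inside the control range. Its change was -0.54 (SE 0.17, limma adjusted p = 0.0391), and the adjusted p ran from 0.0083 to 0.989 over the alternatives. The Ube2g2 difference was -2.23, -1.27, -1.99 and -2.11 on persimmon peel arrays and -1.30, -1.45, -1.30 and -1.18 on control arrays, where persimmon peel array 2 lay within the controls. Its change was -0.59 (SE 0.19, limma adjusted p = 0.0473), with adjusted p of 0.0016 to 0.989 over the alternatives. The Ube2n call was lost on leaving out any 1 of 5 arrays, with adjusted p up to 0.121 without persimmon peel array 3. The Ube2g2 call was lost on leaving out any array but persimmon peel array 2, with adjusted p up to 0.133 without persimmon peel array 1.

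**Figure D3:**
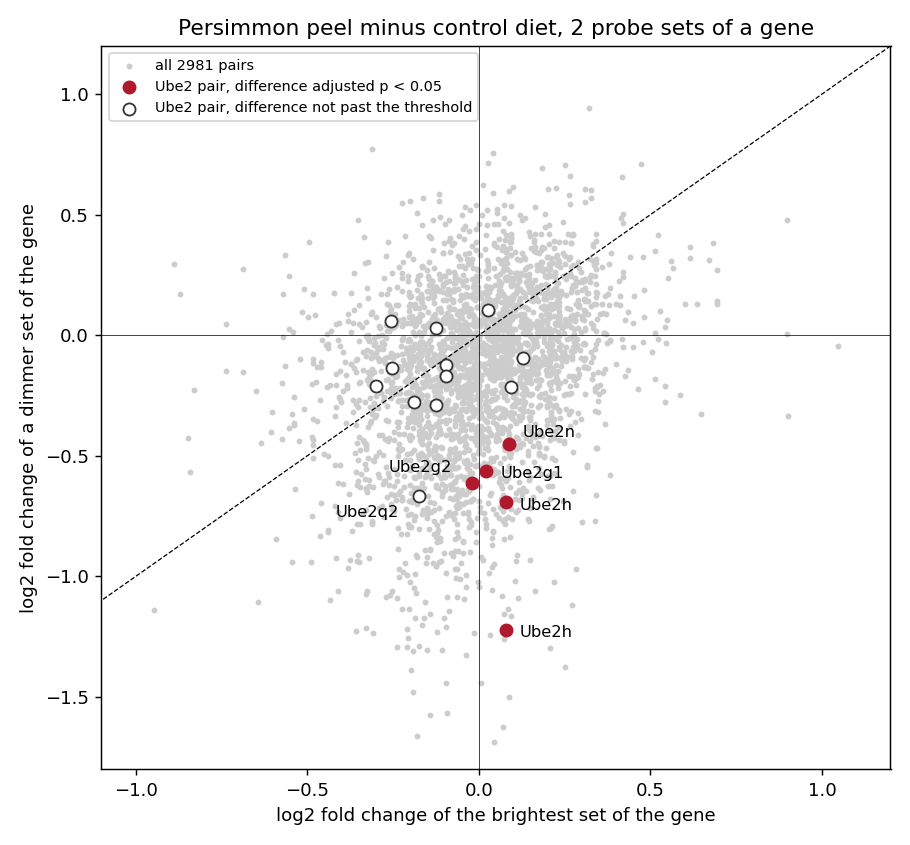
Log2 fold change, persimmon peel minus control diet, of a dimmer probe set against that of the brightest set of its gene, for all 2981 pairs (grey) and the 17 Ube2 pairs (large circles, filled red where the difference was called). The dashed line marks equal change. The 5 filled circles lie below it, with both Ube2h pairs and the Ube2g1 pair at brightest-set values near 0.

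The diets stood apart in the beta-actin ratio and in some of these differences. All 4 persimmon peel arrays were lower than all control arrays both in the beta-actin middle to 3' ratio and in the Ube2h and Ube2g1 differences. The Ube2n and Ube2g2 differences overlapped between the diets. Whether ratio and differences went together among the arrays of 1 diet was not tested. With that ratio as a covariate in the fit, 0 Ube2 sets were called by limma and 3 had an unadjusted p under 0.05, while of all 15521 sets 0 were called and 543 had such a p. The Ube2h sets then had log2 fold changes of -1.28 and -0.57, the Ube2g1 set -0.35 and the Ube2q2 set -0.50, each with a limma adjusted p of 1.00. The diet groups do not overlap in this ratio, so diet and ratio cannot be told apart in these arrays. On leaving out the persimmon peel arrays with the lowest ratios, numbers 1 and 3, both Ube2h sets kept their calls, while Ube2g1 had -0.48 (limma adjusted p = 0.0648) and Ube2q2 -0.50 (limma adjusted p = 0.208). The persimmon peel arrays kept in that fit also lay under the control range in the ratio. The calls kept or lost there therefore cannot separate diet from ratio either. The part of the ratio, and of the lower hepatocyte marker sum, in the Ube2 results was not tested further.

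**Figure D4:**
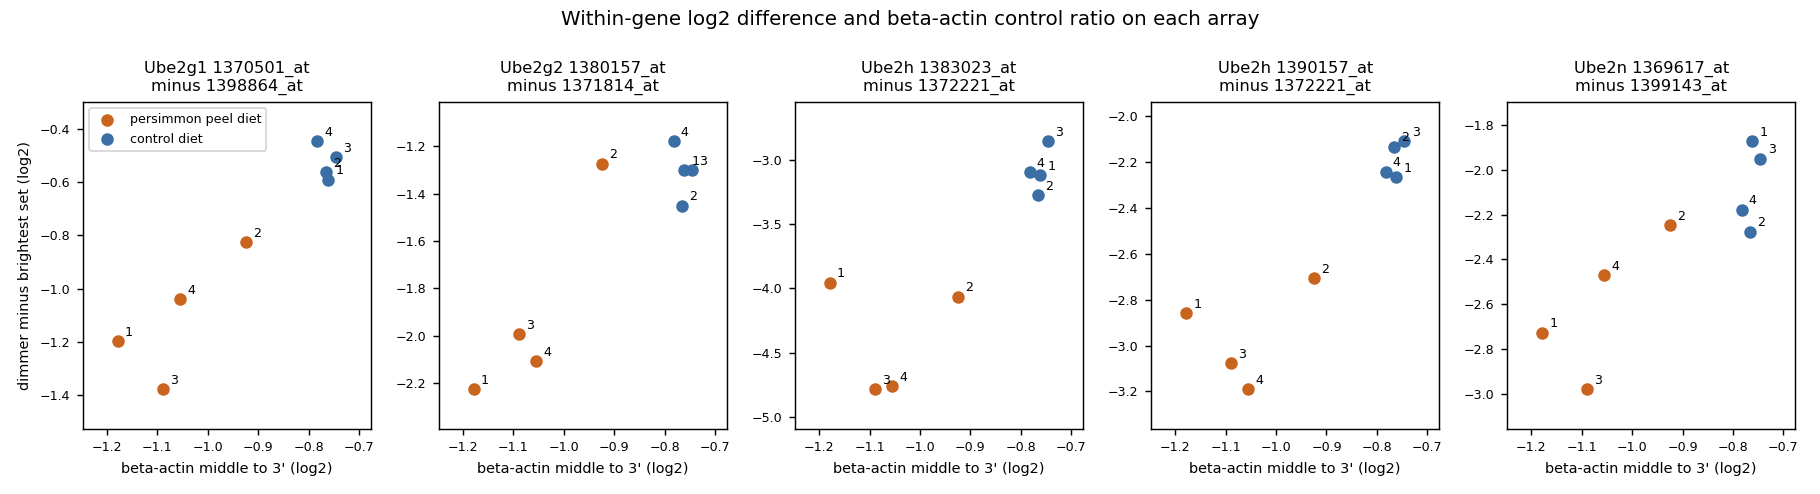
Log2 difference of a dimmer set minus the brightest set of its gene (vertical axes) against the log2 beta-actin middle to 3' ratio (horizontal axes) on each array, for the 5 Ube2 differences called lower. Numbers are replicate numbers. The persimmon peel arrays lie at -1.18 to -0.92 on the horizontal axes and the control arrays at -0.78 to -0.75.

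Leaving out any 1 array kept both Ube2h calls and the Ube2g1 call, with log2 fold changes of -1.33 to -1.13 for 1383023_at, -0.73 to -0.65 for 1390157_at and -0.59 to -0.51 for 1370501_at. When only the brightest set stood for each gene, 0 of 24 Ube2 genes were called by limma, with 4 lower and 0 higher at an unadjusted p under 0.05. When the sets of a gene were averaged, Ube2h (-0.61, limma adjusted p = 0.012) and Ube2q2 (-0.42, limma adjusted p = 0.044) were called, and Ube2g1 had -0.27 (limma adjusted p = 0.092).

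**Figure D5:**
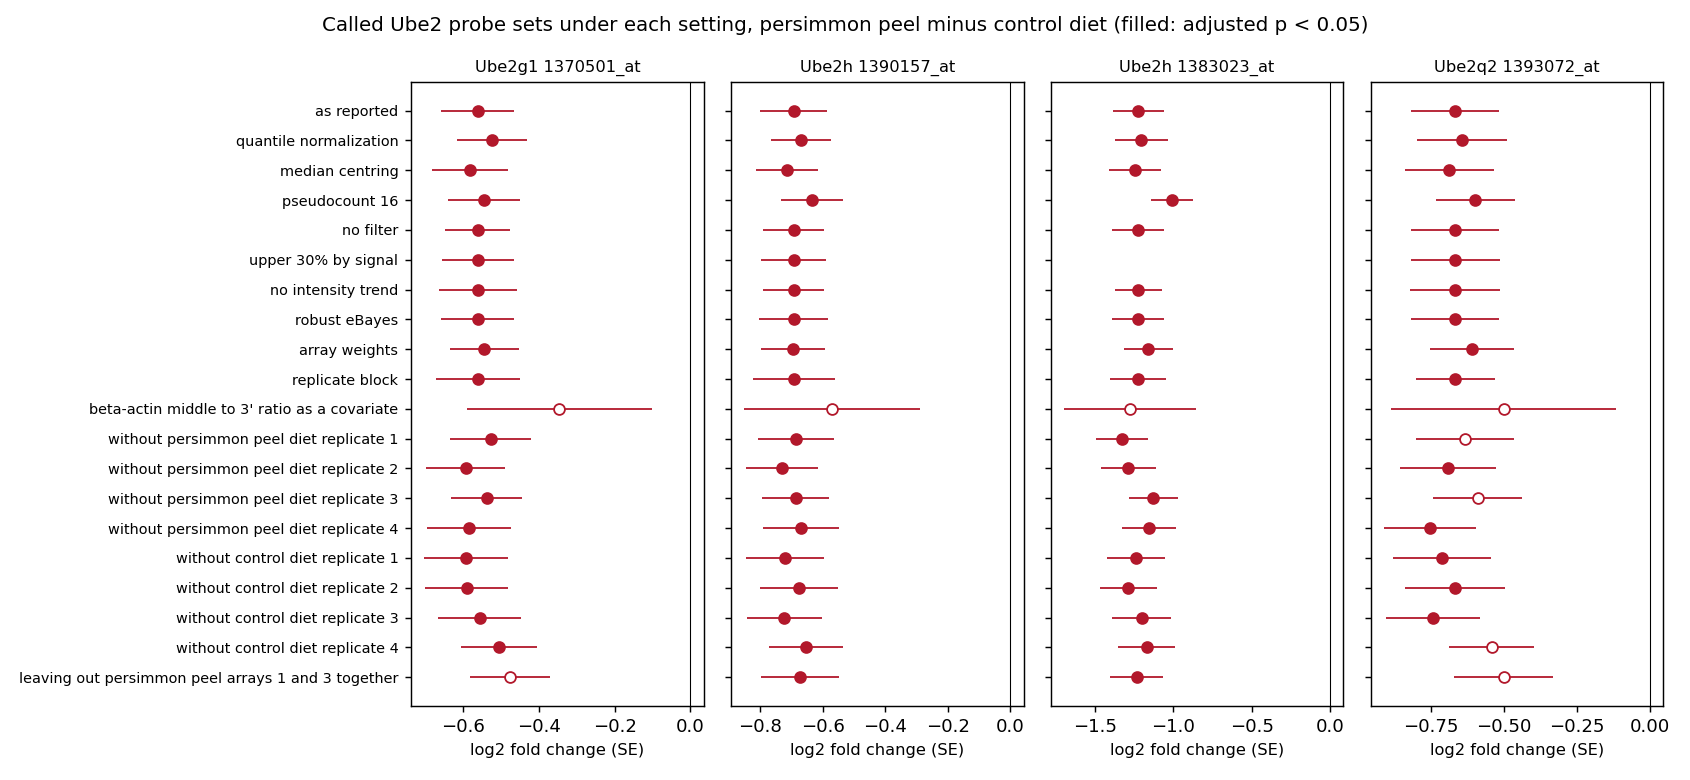
Log2 fold change with SE of the 4 called Ube2 sets as reported and under each alternative setting, filled where the limma adjusted p was under 0.05. All values are below 0. The Ube2h and Ube2g1 points stay filled in each leave-one-out setting, while Ube2q2 opens in 3 of them and all 4 open with the beta-actin ratio as a covariate.

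The 37 tested sets that were not called had log2 fold changes of -0.61 to 0.17 with a median of -0.11. Of all 41 tested Ube2 sets, 27 had a negative and 14 a positive value, so 65.9% were negative against 51.4% of all tested sets. The persimmon peel arrays were all below the control arrays in 10 of the 41, against 10.0% of all tested sets. They were all above in 0, against 2.87%. At an unadjusted p under 0.05, 11 Ube2 sets were lower and 0 higher, among them the 4 called sets and 7 others described next. Those shares are 26.8% and 0%, against 13.4% lower and 6.19% higher over all tested sets. The shares over all tested sets are not matched for kind of set, as 17 of the 41 Ube2 sets but 2981 of all 15521 were dimmer sets. Of all dimmer sets, 65.6% had a negative value and 28.6% were lower at an unadjusted p under 0.05. Of all sets that were the only tested set of their gene, 45.9% had a negative value and 8.63% were lower at that threshold.

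ER-associated degradation draws on Ube2g2, Ube2j1 and Ube2j2, of which the Ube2j enzymes are anchored in the ER membrane. The dimmer Ube2g2 set 1380157_at read 68.2, 148.6, 91.4 and 65.0 units on persimmon peel arrays and 129.5, 120.9, 137.2 and 153.5 units on control arrays. Persimmon peel array 2 stood apart within the control range, and the log2 fold change was -0.61 (SE 0.21, limma adjusted p = 0.116). Without that array it was -0.86 (limma adjusted p = 0.0039), against a range of adjusted p up to 1.00 over all alternatives. The brightest Ube2g2 set, 1371814_at, gave -0.02 (95% interval -0.25 to 0.21), a value whose sign turned to 0.02 after quantile normalization. Ube2j1 gave -0.24 (limma adjusted p = 0.401) and Ube2j2 0.04 (limma adjusted p = 0.857), each on 1 tested set.

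Among E2s of DNA damage and signalling chains, Ube2n set 1369617_at read 94.2, 120.6, 87.9 and 97.0 units on persimmon peel arrays and 144.1, 127.9, 125.8 and 145.9 units on control arrays. The groups did not overlap, yet the set missed the threshold at a log2 fold change of -0.45 (SE 0.13, limma adjusted p = 0.0626). It passed with array weights (limma adjusted p = 0.0467) and without persimmon peel array 2 (limma adjusted p = 0.0205), within a range up to 1.00. The brightest Ube2n set gave 0.09 (limma adjusted p = 0.723), and Ube2v2, a catalytically inactive partner of Ube2n, gave -0.13 (limma adjusted p = 0.483). Ube2a and Ube2b, close relatives of yeast Rad6 that ubiquitinate histone H2B and PCNA, gave negative values without a call. Ube2a set 1388863_at averaged 355 ± 30.9 units under persimmon peel and 437 ± 25.6 units under control diet (SD, n = 4 each), with no overlap and a log2 fold change of -0.30 (limma adjusted p = 0.101). Ube2b gave -0.28 on 1386923_at (limma adjusted p = 0.0883, no overlap) and -0.19 on its brightest set 1375642_at (limma adjusted p = 0.237). The 2 coding sequences are close, and whether a probe set of either gene also reads the other was not tested.

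Ube2d and Ube2e enzymes serve many RING ligases. The 3 tested Ube2d2 sets gave log2 fold changes of -0.10, -0.12 and -0.17 and the 2 Ube2d1 sets -0.10 and 0.13, none called. Brighter sets annotated to both Ube2d2 and Ube2d3 lie outside the rule. Of these, 1367456_at (-0.31, limma adjusted p = 0.0271) and 1399160_a_at (-0.63, limma adjusted p = 0.0060) were called lower. The other, 1398802_at, was not (-0.08, limma adjusted p = 0.632). Ube2d proteins are nearly identical, and whether these sets read more than 1 Ube2d gene was not tested. Ube2e3 set 1389534_at gave -0.26 with no overlap between diets (limma adjusted p = 0.115), its dimmer set 0.06, and Ube2e2 0.15 (limma adjusted p = 0.494). Ube2e3 had 1 of the 5 positive changes among the 17 within-gene differences (0.31, limma adjusted p = 0.187). The others were in Ube2a (0.09), Ube2f (0.08), Ube2l3 (0.11) and a Ube2k set (0.15), and none of the 5 was called.

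Ube2l3, the E2 preferred by HECT and RING-between-RING ligases, gave -0.25 on 1371944_at (limma adjusted p = 0.136) and -0.14 on 1371945_at (limma adjusted p = 0.434), with no overlap between the diets on either. Its close relative Ube2l6, which carries ISG15 in the interferon response, gave -0.13 (limma adjusted p = 0.551), and 0 of 12 interferon response sets were called by limma, with 1 at an unadjusted p under 0.05. NEDD8 is passed to cullins by Ube2m and Ube2f. Ube2m had the highest value of the family, 0.17 (95% interval -0.05 to 0.38, limma adjusted p = 0.395), and the Ube2f sets gave 0.03 and 0.10.

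Ube2k, which extends ubiquitin chains, gave -0.12, 0.03 and -0.29 on 3 tested sets, and Ube2r2, an E2 of cullin 1 ligases, gave 0.07. Ube2o, a large enzyme with both E2 and E3 activity, gave -0.11, and Ube2q1 gave -0.06. Ube2z, which is charged by the E1 Uba6, gave 0.09 on its brightest and -0.21 on its dimmer set. None of these was called by limma.

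Ube2c and Ube2s are the E2s of the anaphase-promoting complex and Ube2t acts in interstrand crosslink repair, all most abundant in dividing cells. Ube2c and Ube2t had no tested set, as had Ube2d2b, Ube2ql1 and Ube2u. Ube2c read between 14.4 and 31.4 units over the 8 arrays and Ube2t between 1.5 and 13.8. The highest of 27 control sets for the bacterial genes dap, lys, phe, thr and trpn reached 14.5 units. Bacterial control sets of other genes, such as BioB, were not among those 27. Ube2s, with 1 tested set, was far brighter, at 327.4 to 529.1 units on persimmon peel arrays and 362.0 to 387.2 units on control arrays. Its log2 fold change was 0.09 (limma adjusted p = 0.732). The 11 untested sets, which include further sets of Ube2b, Ube2k, Ube2s and Ube2z, read between 0.47 and 40.0 units.

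Partners of the E2s were read from 11 lists of 154 genes, chosen with earlier results of these data known. Over the 201 tested sets of 126 listed genes 19 were called lower (9.45%) and 1 higher, with a median log2 fold change of -0.07. Of all tested sets 4.53% were called lower and 0.425% higher. Dimmer sets made up 75 of the 201 sets, against 2981 of all 15521. They held 16 of the 19 lower calls and the 1 higher call. Of the 75, 21.3% were called lower, where 13.8% of all dimmer sets were called lower. The 55 brightest partner sets had 0 calls, where 2.31% of all such sets were called lower. Of the 71 that were the only tested set of their gene, 3 (4.23%) were called lower, where 1.80% of all such sets were. CTLH complex subunits, the ligase partners of Ube2h, had 1 of 15 sets called lower, a dimmer set of Wdr26 (-0.50, limma adjusted p = 0.0212), a scaffold subunit. The median of the list was -0.10. Its next lowest p values belonged to Armc8 (-0.42, limma adjusted p = 0.177), Gid4 (-0.25, limma adjusted p = 0.396) and Ypel5 (-0.13, limma adjusted p = 0.423).

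Of the E1 list, 1 of 12 sets was called lower, a dimmer set of Uba6 (-0.97, limma adjusted p = 0.0045), the enzyme that charges Ube2z. The brightest Uba6 set gave -0.07 (limma adjusted p = 0.805). Uba3, the catalytic subunit of the NEDD8 E1, gave -0.35 on its only set (limma adjusted p = 0.0681), Atg7 of autophagy 0.40 on a dimmer set (limma adjusted p = 0.172), and Sae1 of the SUMO E1 0.15 (limma adjusted p = 0.539). Among E2s without a Ube2 symbol, 1 of 9 sets was called, and it was higher. It was a dimmer set of Cdc34, the E2 of cullin 1 ligases, whose 3 sets gave 0.61 (limma adjusted p = 0.0484), 0.33 (limma adjusted p = 0.116) and 0.20 (limma adjusted p = 0.299). The last of these is the brightest set of the gene. The autophagy E2s Atg3 and Atg10 gave -0.22 each, and Ufc1, the E2 of UFM1, gave 0.17. Ubiquitin-like proteins had 2 of 9 sets called lower, both dimmer sets of Atg12 (-0.52 and -0.64, limma adjusted p = 0.0227 and 0.028), which is conjugated to Atg5 in autophagy. Of the others with the smallest p values there, Sumo2 gave -0.23, Ufm1 -0.19 and Urm1 0.25, none called. The shares called lower were 8.33% of the E1 sets and 22.2% of the ubiquitin-like protein sets. Those shares stand against 4.53% of all tested sets and 13.8% of all dimmer sets.

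HECT and RING-between-RING ligases had 5 of 37 sets called lower with a median of -0.13. They included 2 dimmer sets of Nedd4 (-1.09 and -1.57), a ligase of membrane proteins, whose brightest set gave -0.09 and was not called. The others were dimmer sets of Rnf19a (-0.76) and Arih1 (-0.74) and the only set of Herc2 (-0.42). ER degradation genes had 4 of 33 sets called lower with a median of -0.12, each a dimmer set of its gene. These were Edem1 (-0.78), which directs misfolded glycoproteins to disposal, the lectin Erlec1 (-0.56), the membrane ligase Marchf6 (-0.69) and Ubxn4 (-0.64), a partner of the ATPase Vcp. The list of SUMO-related ligases and proteases had 3 of 20 sets called lower, in Ranbp2 (-1.01), Rnf4 (-0.73) and Senp6 (-0.49). Each was again a dimmer set. Senp2, a SUMO protease, followed with -0.49 (limma adjusted p = 0.0877). The shares called lower were 13.5% of the HECT and RING-between-RING sets, 12.1% of the ER degradation sets and 15% of the SUMO-related sets. Of all tested sets 4.53% were called lower, and of all dimmer sets 13.8%.

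Cullin ligase genes had 2 of 33 sets called lower, the only set of the exchange factor Cand1 (-0.38, limma adjusted p = 0.0291) and a dimmer set of Cul4b (-1.06, limma adjusted p = 0.0377), the scaffold of a ligase that Ube2g1 serves. Skp1, the cullin 1 adaptor, gave -0.28 (limma adjusted p = 0.0536) and Keap1, the cullin 3 adaptor for Nrf2, 0.27 (limma adjusted p = 0.112). The median of that list was -0.03. The chromatin and DNA repair list had 1 of 11 sets called lower, the only set of Wac (-0.72, limma adjusted p = 0.0177), an adaptor for histone H2B ubiquitination. Shprh, a ligase for PCNA, gave -0.51 on a dimmer set (limma adjusted p = 0.107), Traf6 0.21 and Rnf20 0.19. Anaphase-promoting complex genes had 0 of 22 sets called by limma and 3 at an unadjusted p under 0.05, with Anapc10 at -0.47, Anapc7 at 0.31, Anapc15 at -0.35 and Fzr1 at 0.29 having the smallest p values. The shares called lower were 6.06% of the cullin sets and 9.09% of the chromatin and DNA repair sets, against 4.53% of all tested sets. Of the 19 sets called lower in all the partner lists, those of Herc2, Cand1 and Wac were the only tested set of their gene.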

How the data were processed

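Liver RNA of 8 rats, 4 per diet, was hybridised to 8 arrays. The deposited values are linear intensity values made with MAS5, per the submitters' processing notes, which name no version, and the scaling target is not given in the sources used here. All 8 sample columns were used, leaving 0 unused. Replicates are separate rats, per the series' design text. The number of arrays limits the precision.

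Intensities were log2-transformed with no pseudocount. The 57 control sets were left out of tests, and sets in the upper 50% by mean log2 signal were fitted with limma 3.58.1 in R 4.3.3 (lmFit, eBayes with an intensity trend), with Benjamini-Hochberg adjustment over all tested sets. Differences between 2 sets of a gene were fitted likewise. The code was tested on simulated data. Platform annotation gave 1 symbol for 20826 sets, several for 436 and none for 9780. Of the first, 20758 were matched to RefSeq by gene number.

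The members and gene lists were chosen with earlier results of these data known. Named were all sets of genes with a call, uncalled sets with an unadjusted p under 0.05, fixed genes (Ube2g2, Ube2j1, Ube2j2, Ube2l6, Ube2m), and up to 4 genes of smallest p per list. Some listed genes are not reported here. The other Ube2 sets are given briefly outside that rule. Alternatives changed the normalization, pseudocount, filter, trend, weights, gene summary, block, covariate and arrays.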

Additional observations from a re-analysis of the deposited data

Results flagged for a closer look

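Within a diet group of 4 arrays, 1 array stood apart from the other 3 in 5 of 82 group comparisons over the tested Ube2 sets, by Dixon's test at its 95% level. Chance gives about 1 in 20 such groups, so 5 of 82 is near that share. Ube2d2 set 1370524_at read 686.3 units on persimmon peel array 1, where the other persimmon peel arrays read 773 to 787. On the same array Ube2e3 set 1389534_at read 658.8 units, against 753 to 770 on the others of its diet. Ube2l6 set 1373037_at read 684.8 units on persimmon peel array 4 and 539 to 559 on the other persimmon peel arrays. Ube2a set 1388863_at read 475.3 units on control array 4 and 423 to 426 on the other control arrays. Ube2r2 set 1372703_at read 700.0 units on control array 3 and 764 to 776 on the other control arrays. None of these 5 sets was called.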

How the results depend on the processing

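With the beta-actin ratio as a covariate, 0 Ube2 sets and 0 Ube2 differences were called lower by limma, and 0 of all in either direction. This fit moved the median of all sets to -0.11. Leaving out persimmon peel arrays 1 and 3 together gave 2 Ube2 sets (both Ube2h) and 2 Ube2 differences, and over the array 76 sets lower and 1 higher, and 120 differences lower and 5 higher. Ube2 sets called lower numbered 0 with only the brightest set per gene and 2 after averaging the sets of each gene. Ube2 differences called lower numbered 3 with no filter and 3 with no intensity trend. Over the whole array, with no filter, 441 sets were lower and 26 higher, and 217 differences were lower and 19 higher. Higher sets numbered 271 after quantile normalization, 41 in the upper 30% by signal and 33 with no intensity trend, which gave 37 higher differences. The share of higher calls was thus larger after quantile normalization.

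Leaving out 1 array gave 3 to 6 lower Ube2 sets, 3 to 5 lower Ube2 differences, 294 to 942 lower and 12 to 269 higher sets, and 219 to 640 lower and 21 to 89 higher differences. Of the array-wide counts, lower sets numbered 294 without control array 4, and higher sets 269 without persimmon peel array 2.

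Signs turned only for values near 0 or with the covariate. Ube2g1 set 1398864_at gave -0.00075 after median centring, -0.25 with the covariate, -0.072 without persimmon peel arrays 1 and 3, and -0.046 (without persimmon peel array 3) to 0.082 on leaving out 1 array. Ube2g2 set 1371814_at gave 0.016 after quantile normalization, 0.12 with the covariate, and -0.070 to 0.056 (without persimmon peel array 4) on leaving out 1 array. Ube2j2 gave -0.14 with the covariate, -0.0095 without persimmon peel arrays 1 and 3, and -0.0041 (without control array 2) to 0.090 on leaving out 1 array. With the covariate, Ube2h set 1372221_at gave -0.034, Ube2m -0.11, Ube2g2 set 1380157_at 0.61, the Ube2n difference 0.16 and the Ube2g2 difference 0.49. The cause of these turns was not tested.

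The replicate numbers gave no sign of pairing the rats: same-numbered arrays deviated together by r = 0.02, -0.08, 0.05 and 0.04. Differently numbered arrays of the 2 diets gave -0.14 to 0.13. These values cannot show that the rats were unpaired. With the replicate block 4 Ube2 sets were called, the same 4, and the Ube2q2 difference had an adjusted p of 0.0457, Ube2n 0.0733 and Ube2g2 0.069. A pseudocount of 16, robust eBayes and median centring called the same 4 sets. Dim sets limit what can be read, as in the 11 untested ones.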

Other observations

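Outside the rule lie 8 probe sets whose annotation names 2 Ube2 genes at once, so their signal cannot be given to 1 of them. Of the 3 shared by Ube2d2 and Ube2d3, set 1367456_at averaged 2303 ± 145 units under persimmon peel and 2849 ± 148 units under control diet (SD, n = 4 each), with no overlap and a log2 fold change of -0.31 (SE 0.07, limma adjusted p = 0.0271). Set 1399160_a_at read 1144, 1406, 996.5 and 1083 units on persimmon peel arrays and 1676, 1799, 1583 and 2060 units on control arrays. Those groups did not overlap either, and the log2 fold change was -0.63 (limma adjusted p = 0.0060). The third, 1398802_at, gave -0.08 (limma adjusted p = 0.632). The set shared by Ube2e1 and Ube2e2 gave -0.23 (limma adjusted p = 0.233). Those shared by Ube2v1 and its copy Ube2v1l1 gave -0.14 and 0.08 where tested, neither called, and the other 2 were not tested.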
